A study of Saccharomyces cerevisiae with 30 samples.

Results

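The early steps of mitochondrial iron-sulfur cluster assembly were followed through 10 yeast genes: NFS1, ISD11, ISU1, ISU2, YFH1, YAH1, ARH1, SSQ1, JAC1 and GRX5. The genes were chosen by name for their roles in this pathway, with earlier results of these data known. Each was read from the probe set that the array's annotation pairs with it. They are 10 of the 5449 Saccharomyces cerevisiae genes that could be named on the array, and each had a single probe set of its own. All 10 were above the background floor described below on all 30 arrays, so no member was lost to the filter on dim genes.

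Iron-sulfur clusters are cofactors that are built in the mitochondrial matrix before they are placed into proteins. The cysteine desulfurase Nfs1, held stable by Isd11, releases sulfur from cysteine and passes it to a scaffold protein, Isu1 or its near-copy Isu2, where it meets iron. Frataxin, Yfh1, speeds the sulfur transfer, and the ferredoxin Yah1 supplies electrons that it receives from NADPH through its reductase Arh1. The Hsp70 chaperone Ssq1 and its J-protein partner Jac1 then release the new cluster from the scaffold, and the monothiol glutaredoxin Grx5 takes it up and passes it on. In yeast the state of this pathway is also sensed by Aft1 and Aft2, the transcription factors that switch on the genes for iron uptake when clusters run short.

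Cultures of the laboratory strain S288C grew in buffered synthetic dextrose broth without amino acids and received a compound or its DMSO vehicle. E9591, short for eupolauridine-9591, was given at 0.053 µM. LMT, short for liriodenine methiodide, was given at 2.6 µM. Exposure to either lasted about 4 h or, in a separate experiment, about 15 h. The iron chelators 2,2'-bipyridyl (BIPR) at 65.9 µM and 1,10-phenanthroline (PHEN) at 6.2 µM were the study's references for iron deficiency and were used for about 4 h. Each dose was the compound's own IC50, a standard measure of inhibitory strength, so the doses differ between compounds. Each of the 4 experiments (E9591 at 4 h, LMT at 4 h, both chelators at 4 h, both compounds at 15 h) had its own vehicle group, given 0.25% DMSO. This makes 10 groups of 3 cultures, labelled as biological replicates A, B and C, with 1 array each. All groups are wild-type cultures of this single strain.

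The deposited values are linear array intensities that the authors had scaled, with a trimmed mean of 1000.4 to 1000.8 on every array. A floor was set on each array at the 95th percentile of the 1746 probe sets made for another yeast species, which lay at 11.2 to 34.5. Of the 5449 genes, 5429 were above the floor on at least 3 arrays and were tested together. The log2 ratios of 2 arrays of the same group had a standard deviation over genes of 0.1795 to 0.3864, the widest among the DMSO arrays of the chelator experiment (at most 0.3128 in the other groups). Genes specific to the alpha mating type were above the floor on all 30 arrays. The 6 genes specific to the other mating type, a, were above it on all 30 arrays as well and none was at 0. Their summed intensity was 5064 to 5663 on the 4 h E9591 arrays against 1131 to 1275 on the matched DMSO arrays, and 8479 to 8883 on the 4 h LMT arrays against 2316 to 2426. It was 1790.0 to 2016 with BIPR and 1643 to 1656 with PHEN against 1429 to 1747 on their DMSO arrays. At 15 h it was 2664 to 3605 with E9591 and 746 to 904 with LMT, against 1649 to 1711 with DMSO. The summed intensity of the 4 alpha genes was 18224 to 18871 with LMT at 4 h against 36573 to 38504 on the matched DMSO arrays. At 15 h it was 9728 to 11581 with E9591 and 22787 to 25160 with LMT against 4030 to 4771 with DMSO, where the lowest sum on the 4 h DMSO arrays was 36573. The part of these shifts in the members' changes was not tested. Because intensity is a mean over a culture, fewer expressing cells and less message per cell cannot be told apart.

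After 4 h, E9591 and LMT raised the scaffold gene ISU1, the ferredoxin gene YAH1 and the chaperone gene SSQ1, while YFH1 and GRX5 were not called at the deposited scaling. Both chelators raised ISU1 and SSQ1 as well, but YAH1, YFH1 and GRX5 fell. After 15 h ISU1 and SSQ1 were lower than in the 15 h DMSO group with either compound, and ISU2 was higher by up to 16.5-fold. That DMSO group itself differed from the 4 h DMSO groups, by 2.48 at ISU1, 1.43 at SSQ1 and -2.64 at ISU2 (log2). With either compound at 15 h, ISU1 and SSQ1 still lay above all 9 of the 4 h DMSO arrays. ISU2 lay above all 9 with E9591 and below all 9 with LMT.

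Changes were tested with limma across all 5429 genes, and a gene was called at a Benjamini-Hochberg adjusted p under 0.05. With E9591 at 4 h, 5 of the 10 genes rose and 0 fell, where 32.0% of all tested genes were called higher and 11.3% lower. With LMT at 4 h, 6 rose and 0 fell, beside 40.4% and 25.2%. BIPR raised 6 and lowered 3, beside 27.7% and 18.5%, and PHEN raised 6 and lowered 3, beside 29.2% and 19.7%. At 15 h, E9591 gave 4 higher and 6 lower against a background of 45.7% higher and 42.2% lower. LMT gave 2 higher and 7 lower against 41.9% and 41.9%. At 15 h most of the transcriptome was called, so a call by itself says little about these genes there and the sizes carry the description. The median change of the 10 genes was 0.21 with E9591 at 4 h, 0.37 with LMT at 4 h, 0.37 with BIPR, 0.38 with PHEN, -0.41 with E9591 at 15 h and -0.41 with LMT at 15 h, all as log2 changes. Over all tested genes the medians in the same order were 0.09, 0.10, 0.04, 0.05, 0.05 and -0.01. When every array was centred on its median, the splits became 3 higher and 3 lower with E9591 at 4 h, beside 19.8% higher and 30.0% lower of all genes, and 5 higher and 4 lower with LMT at 4 h, beside 28.0% and 39.9%. The medians of all genes moved to -0.07 and -0.11. Quantile normalization gave 6 higher and 1 lower for E9591, beside 17.4% and 23.4%, and 5 higher and 3 lower for LMT, beside 29.4% and 35.1%. Both alternatives thus turned the split of all genes toward lower.

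**Figure D1:**
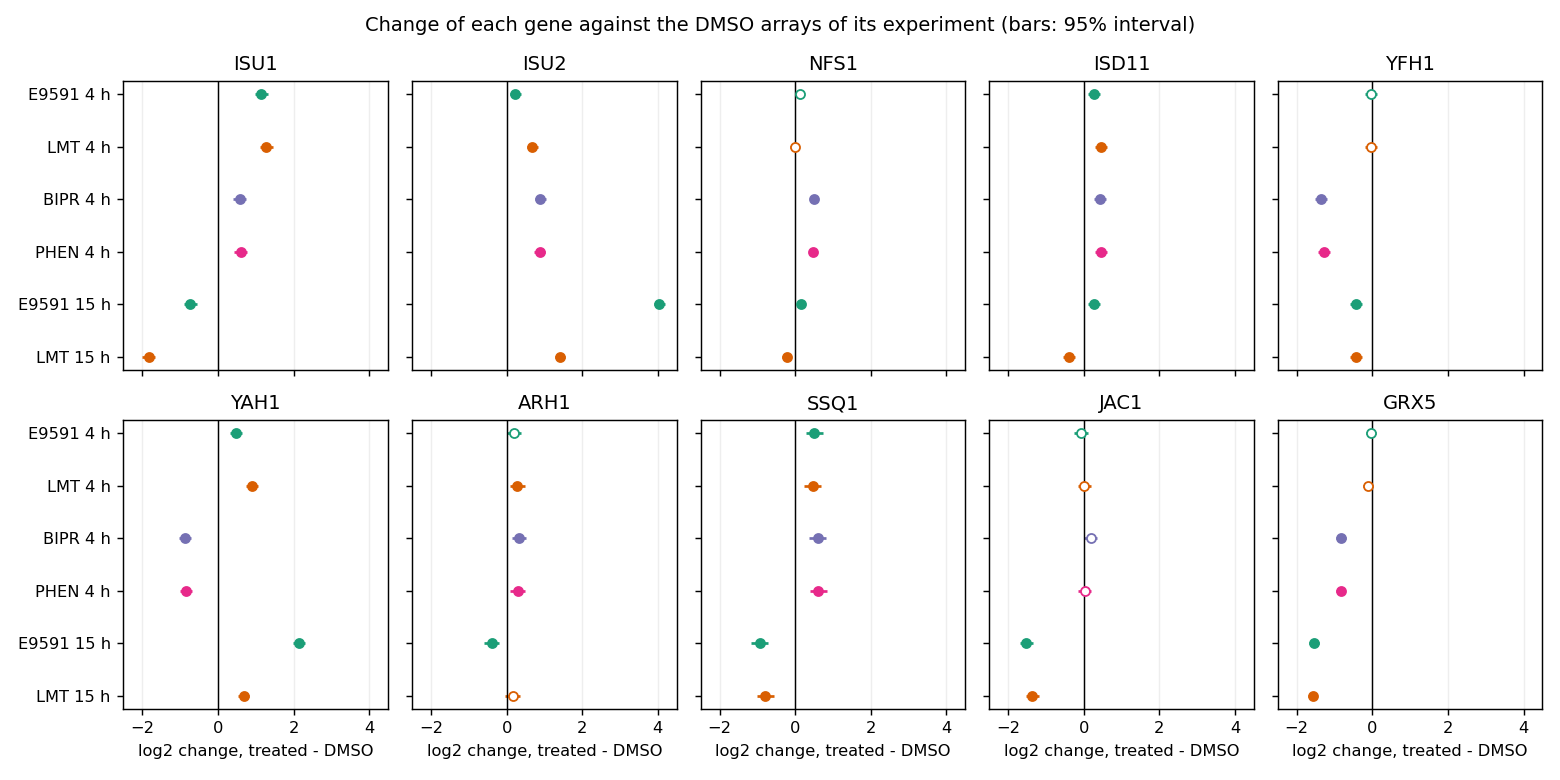
Log2 change of each of the 10 genes against the matched DMSO group (horizontal axis) for the 4 compounds at 4 h and for E9591 and LMT at 15 h. Points are limma estimates from 3 arrays a group, bars are 95% intervals, filled points passed an adjusted p of 0.05 and open points did not. ISU2 with E9591 at 15 h stands farthest to the right at 4.04, and ISU1 with LMT at 15 h farthest to the left at -1.83.

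ISU1 encodes the main scaffold on which clusters are assembled. Its intensity on replicates A, B and C was 2815, 2660.3 and 2597 with DMSO and 6353, 6002 and 5549 with E9591 at 4 h. In the LMT experiment it was 3798, 3825 and 3427 with DMSO and 8861, 8497 and 9488 with LMT. In both experiments all treated arrays lay above all DMSO arrays, and ISU1 rose by 1.15 ± 0.08 with E9591 (log2 change ± SE, n = 3 against 3, 2.22-fold, limma adjusted p = 5.31e-11) and by 1.28 ± 0.08 with LMT (2.43-fold, adjusted p = 2.22e-12). In the chelator experiment the DMSO arrays read 3061, 2922 and 2971, the BIPR arrays 4477, 4427 and 4404 and the PHEN arrays 4552, 4263 and 4774. The chelator arrays were again above every DMSO array, by 0.57 ± 0.08 under BIPR (adjusted p = 3.85e-06) and 0.60 ± 0.08 under PHEN (adjusted p = 1.8e-06).

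ISU2 encodes the second scaffold, which can stand in for Isu1. The genes are close copies, and although neither probe set is marked by its name as shared between genes, cross-hybridisation between them was not tested. The DMSO arrays beside E9591 read 3315, 3241 and 3490.2 and the E9591 arrays 3832, 3937 and 4036. The groups did not overlap, and the rise of 0.23 ± 0.07 passed the test (adjusted p = 0.00692). It was the smallest rise of ISU2 with any compound, and with arrays centred on their medians it was 0.07 and no longer called. With LMT the arrays went from 5282, 5247 and 5466 to 8654, 8329.7 and 8688, a rise of 0.68 ± 0.07 (adjusted p = 3.96e-09). In the chelator experiment ISU2 read 4231, 4054 and 4580.2 with DMSO, 8102, 7828 and 7929 with BIPR and 7899, 7137 and 8597 with PHEN. Every chelator array lay above every DMSO array, and the rises were 0.89 ± 0.07 (adjusted p = 8.55e-11) and 0.87 ± 0.07 (adjusted p = 1.21e-10).

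The 15 h DMSO arrays differed from the 4 h DMSO arrays at both scaffold genes, in opposite directions. ISU1 read 18507, 15506 and 17752 on the 15 h DMSO arrays, above all 9 of the 4 h DMSO arrays, whereas ISU2 read 696, 646 and 707, below all 9. With E9591 for 15 h, ISU1 read 11023, 8864 and 11432 and ISU2 11118, 10566 and 12117. With LMT for 15 h, ISU1 read 4669, 4714 and 5154 and ISU2 1927, 1859 and 1665. Against the 15 h DMSO arrays, ISU1 fell by 0.73 ± 0.08 on the log2 scale with E9591 (adjusted p = 1.02e-08) and by 1.83 ± 0.08 with LMT (adjusted p = 3.43e-16). ISU2 rose by 4.04 ± 0.07 with E9591 (16.5-fold, adjusted p = 8.24e-25) and by 1.41 ± 0.07 with LMT (2.66-fold, adjusted p = 1.04e-15). Set against the 4 h DMSO arrays instead, ISU1 was still above all 9 of them with either compound at 15 h. ISU2 was above all 9 with E9591 and below all 9 with LMT.

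**Figure D2:**
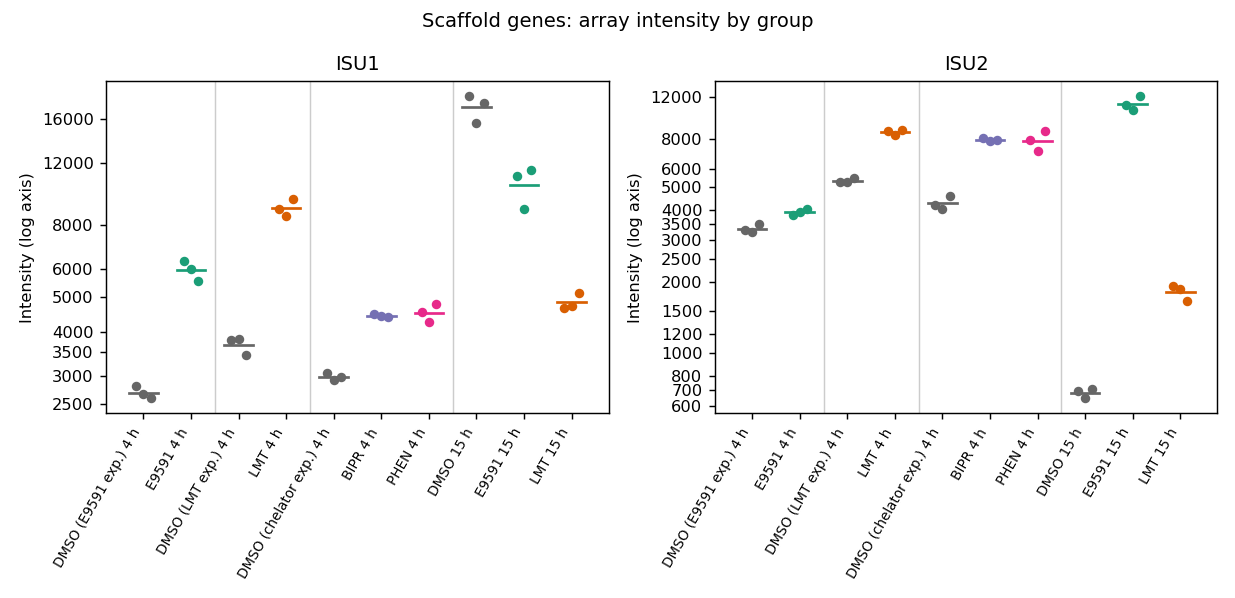
Array intensity (log axis) of ISU1 and ISU2 on each of the 30 arrays, by group, with the group mean of the log2 values as a bar. Grey points are DMSO arrays, and vertical lines separate the 4 experiments. ISU2 is lowest on the 15 h DMSO arrays and highest on the 15 h E9591 arrays, and ISU1 is highest on the 15 h DMSO arrays.

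The balance of both scaffold messages was described by the log2 intensity of ISU1 minus that of ISU2 on the same array. Probe sets differ in brightness for the same amount of message, so this difference is compared between groups and its sign has no meaning of its own. With E9591 at 4 h it was 0.60 ± 0.14 (SD, n = 3) against -0.32 ± 0.10 with DMSO, a shift of 0.91. With LMT it was 0.06 ± 0.06 against -0.54 ± 0.12, a shift of 0.60. Both compounds thus moved the balance toward ISU1 at 4 h, with no overlap of the arrays. The chelators moved it the other way, to -0.84 ± 0.02 with BIPR and -0.80 ± 0.05 with PHEN from -0.52 ± 0.09 with DMSO, shifts of -0.32 and -0.27. At 15 h the balance was 4.65 ± 0.07 with DMSO, -0.12 ± 0.12 with E9591 and 1.42 ± 0.19 with LMT, shifts of -4.77 and -3.24. Each of the 6 shifts had an exact permutation p of 0.1 (two-sided), the smallest that 3 against 3 arrays allow. Pooling the 6 chelator arrays against their 3 DMSO arrays gave a shift of -0.30, and pooling the 6 treated arrays at 15 h gave -4.01. Both had an exact permutation p of 0.0119 (n = 6 against 3), the smallest possible there. It follows from the lack of overlap in the separate comparisons and is no added evidence. The pooled arrays come from different compounds and are not replicates of 1 condition.

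**Figure D3:**
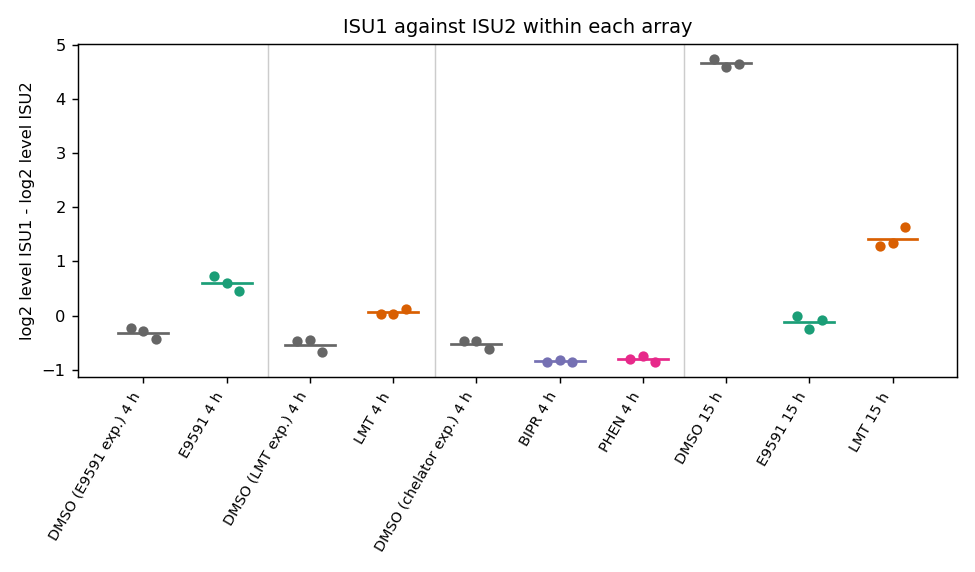
Log2 intensity of ISU1 minus that of ISU2 on each array (vertical axis), by group. Points are single arrays, 3 a group. The balance is higher than in the matched DMSO group with E9591 and LMT at 4 h, lower with both chelators, and far lower with both compounds at 15 h, where the DMSO arrays average 4.65.

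YAH1 encodes the mitochondrial ferredoxin that hands electrons to the assembly complex. At 4 h it read 1306, 1166 and 1373 with DMSO and 1889, 1684 and 1789.5 with E9591, and 2026, 2143 and 1964 with DMSO and 3713, 3586 and 4163 with LMT. In the chelator experiment it read 1429.8, 1506 and 1271 with DMSO, 759.7, 735 and 779 with BIPR and 762, 793 and 798 with PHEN. The groups did not overlap in any of these comparisons. YAH1 rose by 0.48 ± 0.08 with E9591 (adjusted p = 1.96e-05) and by 0.90 ± 0.08 with LMT (adjusted p = 3.4e-10), and it fell by 0.88 ± 0.08 with BIPR (adjusted p = 1.21e-09) and by 0.83 ± 0.08 with PHEN (adjusted p = 3.28e-09). At 15 h it read 814, 959.8 and 907 with DMSO, 3949, 3688 and 4299 with E9591 and 1412, 1435 and 1425 with LMT, rises of 2.15 ± 0.08 (4.45-fold) and 0.67 ± 0.08 (1.60-fold). The 15 h DMSO arrays lay below all 9 of the 4 h DMSO arrays.

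YFH1, the frataxin gene, stayed within a narrow band except with the chelators and at 15 h. It read 1274, 1207 and 1329 with DMSO and 1235, 1243 and 1261 with E9591 at 4 h, and 1226, 1192 and 1387 with DMSO and 1226, 1178 and 1323 with LMT. These groups overlapped, with changes of -0.03 ± 0.08 and -0.03 ± 0.08 (adjusted p = 0.802 and 0.758), for which the 95% intervals ran from -0.18 to 0.13 and from -0.19 to 0.13. In the chelator experiment it read 1356, 1298 and 1177 with DMSO, 494, 527 and 465 with BIPR and 516, 576 and 484 with PHEN. All chelator arrays were far below all DMSO arrays, and YFH1 fell by 1.36 ± 0.08 with BIPR (0.389 of the DMSO level, adjusted p = 4.06e-13) and by 1.28 ± 0.08 with PHEN (0.411 of it, adjusted p = 1.32e-12). At 15 h it read 1071, 1299 and 1213 with DMSO, 868, 908 and 876 with E9591 and 904, 847 and 906 with LMT, and it fell by 0.43 and 0.43 (adjusted p = 1.45e-05 and 1.79e-05).

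GRX5 encodes the glutaredoxin that receives clusters from the scaffold. At 4 h it read 1929.9, 1839 and 1819 with DMSO against 1789, 1818 and 1821 with E9591. In the LMT experiment it read 1727, 1766 and 1889.7 with DMSO against 1646, 1651 and 1696 with LMT. The E9591 arrays overlapped their DMSO arrays and the LMT arrays lay just below theirs, but neither change passed the test (-0.04 ± 0.06 and -0.11 ± 0.06, adjusted p = 0.608 and 0.129). With the chelators it went from 1996, 1909 and 1682 to 1042, 1085 and 1015 with BIPR and 1046, 1019.6 and 1056 with PHEN. GRX5 fell by 0.83 ± 0.06 and 0.84 ± 0.06 (adjusted p = 8.12e-11 and 6.7e-11), with no overlap of the arrays. At 15 h the DMSO arrays read 3900.2, 3456 and 3899.5, above all 9 of the 4 h DMSO arrays, the E9591 arrays 1264, 1217 and 1401 and the LMT arrays 1244, 1244 and 1279. It fell by 1.54 with E9591 and 1.58 with LMT (adjusted p = 1.81e-17 and 2.47e-17), to levels below those of the 4 h DMSO arrays as well. With arrays centred on their medians, GRX5 and YFH1 were called lower with both compounds at 4 h, at -0.20 and -0.19 with E9591 and -0.31 and -0.23 with LMT. With quantile normalization both were called lower with LMT, at -0.23 and -0.20.

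**Figure D4:**
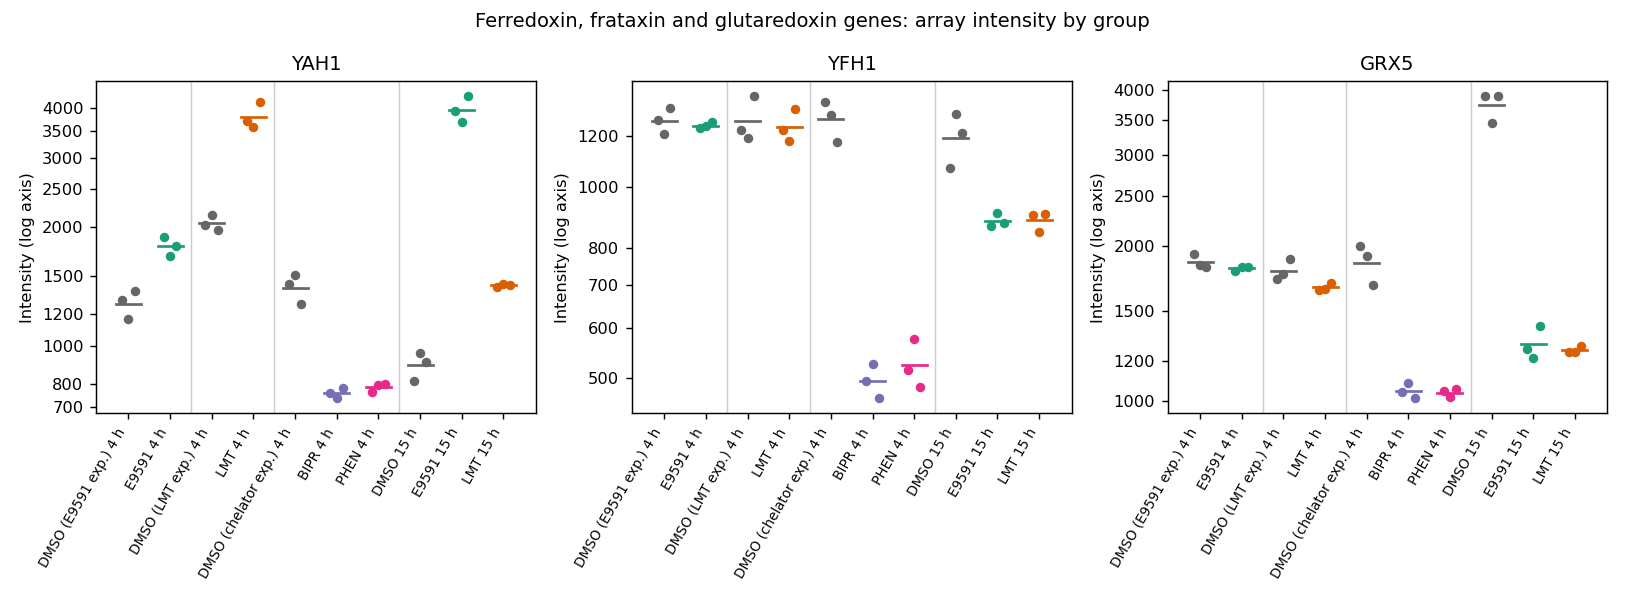
Array intensity (log axis) of YAH1, YFH1 and GRX5 on each of the 30 arrays, by group, with the group mean of the log2 values as a bar. Grey points are DMSO arrays. All 3 genes are lowest on the BIPR and PHEN arrays, and YAH1 is highest on the LMT arrays at 4 h and the E9591 arrays at 15 h.

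NFS1, the desulfurase gene, varied least, by 1.51-fold between its lowest and highest group means. Its group ranges at 4 h were 3031 to 3531 with DMSO and 3499 to 3725 with E9591, and 3652 to 3959 with DMSO and 3739 to 3984 with LMT. Both pairs of groups overlapped and neither change passed the test (0.12 ± 0.05 and -0.01 ± 0.05, adjusted p = 0.0799 and 0.879). With E9591 it was called higher without DMSO replicate A, at 0.17, and with quantile normalization, at 0.15, and with LMT it was called lower with centred arrays, at -0.21. It rose by 0.49 ± 0.05 with BIPR (adjusted p = 8.58e-08) and by 0.47 ± 0.05 with PHEN (adjusted p = 1.71e-07). The DMSO arrays there read 3333 to 3552, below both the BIPR arrays at 4766 to 5013 and the PHEN arrays at 4608 to 4933. At 15 h it read 3738 to 3839 with DMSO, 4011 to 4449.8 with E9591 and 3158 to 3296 with LMT. The 15 h changes were small and of opposite sign, a rise of 0.16 ± 0.05 with E9591 (adjusted p = 0.0102) and a fall of 0.23 ± 0.05 with LMT (adjusted p = 5.49e-04). The rise was no longer called with array weights (0.11), with centred arrays (0.06) or without replicate C of E9591 (0.12).

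ISD11, whose product stabilises Nfs1, rose in all 4 comparisons at 4 h. The arrays read 1406 to 1555 with DMSO against 1692 to 1871 with E9591, and 1929 to 2261 with DMSO against 2685 to 3004 with LMT. In the chelator experiment they read 1417 to 1661 with DMSO, 1935 to 2074 with BIPR and 2005 to 2166 with PHEN. No treated array overlapped its DMSO group. The rises were 0.26 ± 0.08, 0.46 ± 0.08, 0.42 ± 0.08 and 0.46 ± 0.08 in that order, with adjusted p of 0.0072, 1.11e-05, 7.84e-05 and 2.3e-05. The first was 0.11 and not called with centred arrays. At 15 h the compounds parted, with a rise of 0.27 ± 0.08 for E9591 (2072 to 2465 with DMSO, 2634 to 2783 with E9591) and a fall of 0.39 ± 0.08 for LMT (1608 to 1804).

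ARH1 encodes the reductase that feeds electrons to Yah1, and its changes at 4 h were small. At 4 h it read 631 to 848 with DMSO and 699.9 to 917 with E9591, which overlapped (change 0.19 ± 0.09, adjusted p = 0.1). It rose by 0.29 ± 0.09 with LMT (adjusted p = 0.0106), by 0.33 ± 0.09 with BIPR (adjusted p = 0.00672) and by 0.30 ± 0.09 with PHEN (adjusted p = 0.012). Each of these rises was lost under some setting. With LMT it was 0.08 with centred arrays, 0.06 with quantile normalization and 0.21 without DMSO replicate A. With PHEN it was 0.20 with quantile normalization and 0.24 without DMSO replicate C, and it was also lost with centred arrays and with array weights. With BIPR it was 0.24 with array weights. With E9591 the reverse held, and ARH1 was called at 0.31 without DMSO replicate A. At 15 h it fell by 0.39 ± 0.09 with E9591, where the arrays read 486 to 510.1 against 629 to 674 with DMSO. The LMT arrays at 15 h, 686 to 769.8, lay above the DMSO arrays, but the change of 0.16 ± 0.09 did not pass the test (adjusted p = 0.119).

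SSQ1, the Hsp70 gene, rose with every compound at 4 h. It read 636 to 847 with DMSO against 1002 to 1087 with E9591, and 769 to 805 with DMSO against 1069.8 to 1125 with LMT. In the chelator experiment the DMSO arrays read 675 to 957, the BIPR arrays 1107 to 1342 and the PHEN arrays 1131 to 1299. The rises of 0.51 ± 0.11, 0.46 ± 0.11, 0.60 ± 0.11 and 0.61 ± 0.11 were close in size, and no treated array overlapped its DMSO group (adjusted p = 6.68e-04, 7.59e-04, 9.74e-05 and 7.37e-05). JAC1, its J-protein partner, was not called with any compound at 4 h at the deposited scaling. Its changes were -0.08 ± 0.09, 0.02 ± 0.09, 0.18 ± 0.09 and 0.02 ± 0.09 in the same order, all with overlapping arrays. It was called higher with BIPR, at 0.27, without DMSO replicate A, and lower with E9591, at -0.24, with centred arrays. With LMT it was called lower both with centred and with quantile-normalized arrays. At 15 h both genes stood high in the DMSO group, SSQ1 at 1831 to 2305 and JAC1 at 1527 to 1694, above all 9 of the 4 h DMSO arrays. Both fell with E9591, by 0.93 ± 0.11 and 1.52 ± 0.09, and with LMT, by 0.79 ± 0.11 and 1.36 ± 0.09. SSQ1 nevertheless read 1012 to 1154 with E9591 and 1151 to 1246 with LMT at 15 h, above the 4 h DMSO arrays. JAC1 read 487 to 619 and 624 to 631, overlapping them.

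**Figure D5:**
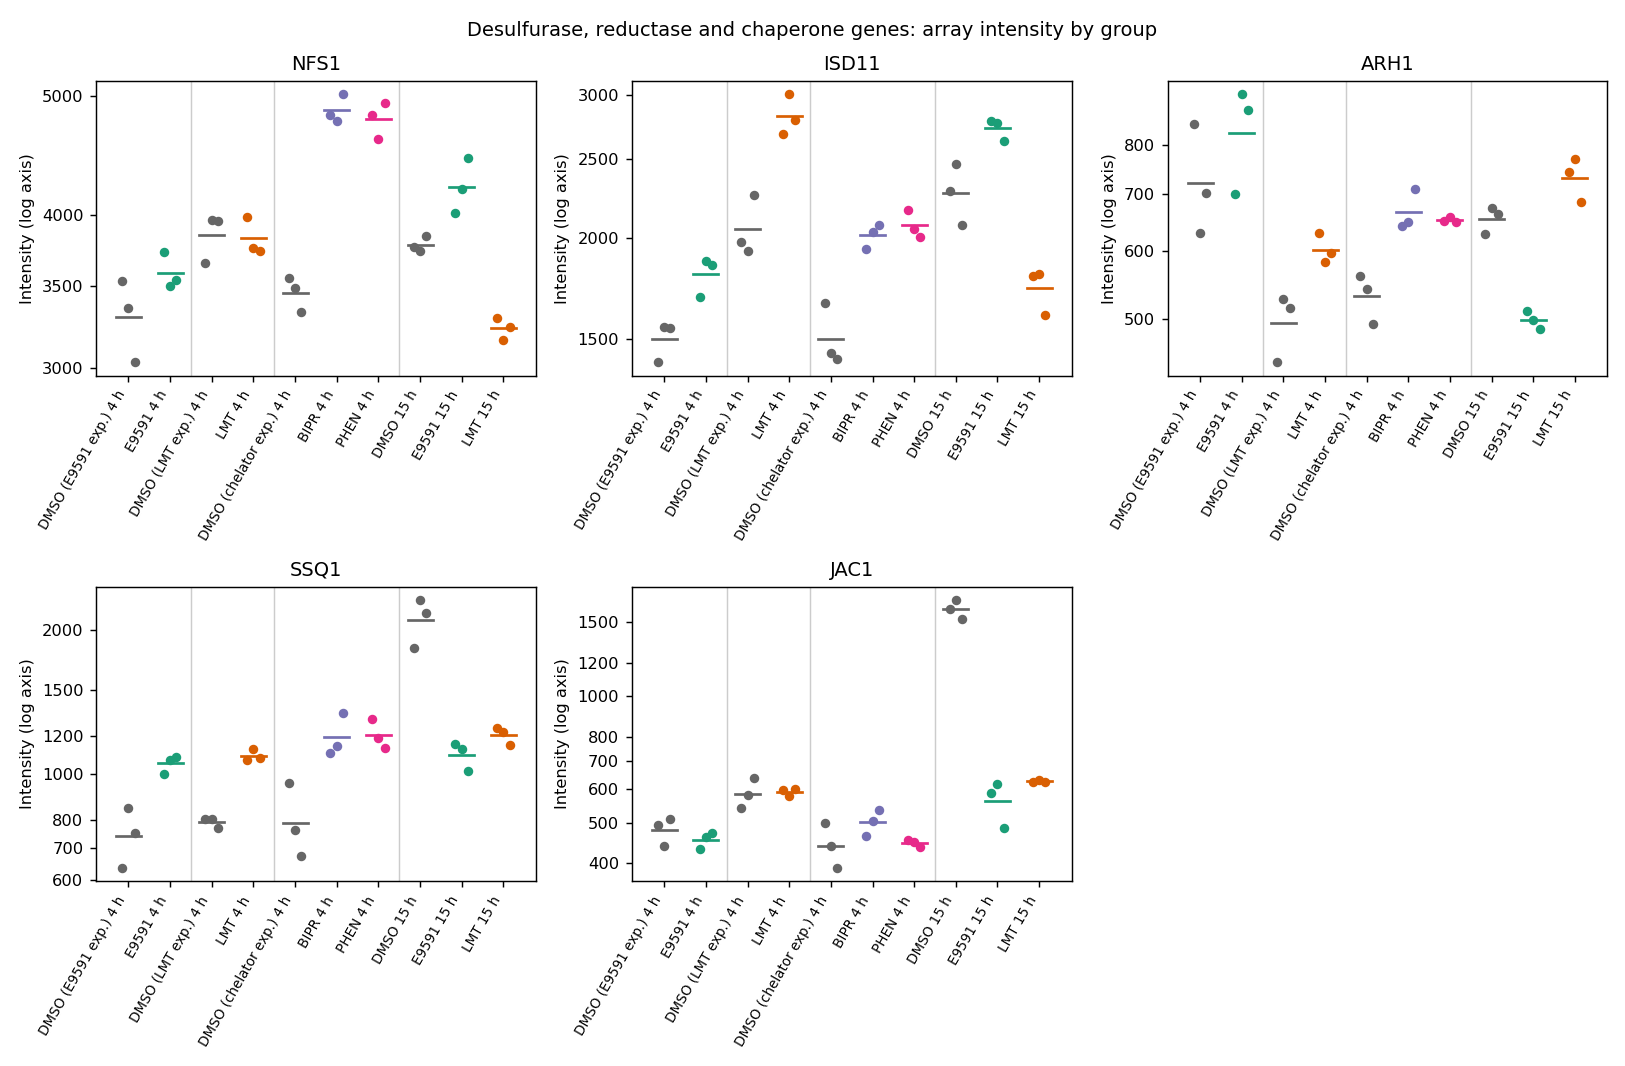
Array intensity (log axis) of NFS1, ISD11, ARH1, SSQ1 and JAC1 on each of the 30 arrays, by group, with the group mean of the log2 values as a bar. Grey points are DMSO arrays, and the axes differ between panels. SSQ1 is above its DMSO group with every compound at 4 h, and SSQ1 and JAC1 are highest on the 15 h DMSO arrays.

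Whether the compounds differed at 4 h was tested on the difference between their changes, each taken against its own DMSO group. These p-values leave out variation between experiments. E9591 and LMT differed at 2 of the 10 genes, both with the smaller rise under E9591: ISU2 at -0.45 ± 0.09 (adjusted p = 9.4e-04) and YAH1 at -0.42 ± 0.11 (adjusted p = 0.00559). Over all tested genes 13.5% were called with the higher change under E9591 and 12.4% with the lower. Quantile normalization gave 4 lower and 0 higher, beside 17.1% lower and 18.1% higher. For ISU1 the difference was -0.13, with a 95% interval from -0.37 to 0.11. The DMSO group beside LMT lay above all other 4 h DMSO arrays for 6 of the 10 genes, as it did for 29.0% of all tested genes, by 0.38 for ISU1, 0.49 for ISU2 and 0.61 for YAH1 (log2), so the starting levels of these comparisons differed.

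Against the mean change of both chelators, 6 genes differed with E9591, 4 with the higher change and 2 with the lower, where 18.9% and 10.0% of all genes did. The differences were 1.34 ± 0.10 for YAH1, 1.30 ± 0.10 for YFH1, 0.79 ± 0.08 for GRX5, 0.56 ± 0.11 for ISU1, -0.65 ± 0.09 for ISU2 and -0.36 ± 0.07 for NFS1. With LMT 5 genes differed, 4 with the higher change and 1 with the lower, beside 29.6% and 21.2% of all genes. They were YAH1 at 1.76 ± 0.10, YFH1 at 1.29 ± 0.10, GRX5 at 0.72 ± 0.08, ISU1 at 0.69 ± 0.11 and NFS1 at -0.49 ± 0.07, while ISU2 at -0.20 ± 0.09 missed the threshold (adjusted p = 0.0605). Both comparisons share the chelator arrays, so their likeness is not independent. Their standard errors and p-values leave out variation between experiments. With centred arrays the splits were 4 higher and 4 lower for E9591, beside 15.4% and 16.5% of all genes, and 4 higher and 2 lower for LMT, beside 22.5% and 29.0%. With quantile normalization the split for E9591 was 4 higher and 3 lower, beside 15.7% and 15.7%. YFH1, YAH1 and GRX5 were the genes that fell with the chelators, and ISD11, ARH1, SSQ1 and JAC1 did not pass this test with either compound.

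The chelators PHEN and BIPR share their ability to bind iron through a pair of nitrogen atoms, and PHEN differs by having its rings fused into a rigid frame. They shared 1 DMSO group but were used at different doses. In the direct comparison of their arrays 0 of the 10 genes were called, beside 0% higher and 0% lower of all genes, and limma gave 286 of 5429 genes and 0 of the 10 an unadjusted p under 0.05. With array weights 16 genes were called higher and 5 lower with PHEN, again 0 of the 10. The largest difference among the 10 was -0.16 ± 0.09 for JAC1 (adjusted p = 0.917), and the 95% intervals of all 10 lay between -0.34 and 0.24 on the log2 scale.

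The vehicle groups themselves differed between 4 h and 15 h at most tested genes, these among them. Only 492 of 5429 genes were not called, so a call by itself says little about these genes. From the 9 DMSO arrays at 4 h to the 3 at 15 h, 7 genes rose and 2 fell, where 48.3% of all genes were called higher and 42.6% lower. The largest rises were ISU1 at 2.48 ± 0.07, JAC1 at 1.69 ± 0.07, SSQ1 at 1.43 ± 0.09 and GRX5 at 1.03 ± 0.05, and ISU2 fell by 2.64 ± 0.05 and YAH1 by 0.79 ± 0.06. Experiment and time cannot be told apart here, since all 15 h arrays belong to 1 experiment. The standard errors and calls leave out variation between experiments. For ISU2 the 4 h DMSO means were 11.71, 12.38 and 12.06 (log2) in the E9591, LMT and chelator experiments. With arrays centred on their medians the split was 5 higher and 3 lower, beside 45.5% and 46.2% of all genes, and with quantile normalization 6 higher and 3 lower, beside 46.2% and 45.2%. Among the 7, NFS1 (0.10 ± 0.04) and ARH1 (0.19 ± 0.08) did not keep their calls under every alternative. Of the 10 genes, 6 lay above the range of the 4 h DMSO arrays and 2 below it with E9591 at 15 h (NFS1, ISD11, ISU1, ISU2, YAH1 and SSQ1 above, YFH1 and GRX5 below). Over all tested genes, 32.4% lay above that range with E9591 and 21.5% below it. With LMT at 15 h, 2 lay above it (ISU1 and SSQ1) and 3 below (ISU2, YFH1 and GRX5), beside 34.1% and 22.5% of all genes.

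The change with E9591 at 15 h differed from that at 4 h for 8 genes, 2 with the higher and 6 with the lower change at 15 h, beside 39.7% and 44.9% of all genes. ISU2 (3.81 ± 0.09) and YAH1 (1.67 ± 0.11) had the higher change at 15 h, whereas ISU1 (-1.88 ± 0.12), GRX5 (-1.49 ± 0.09), JAC1 (-1.44 ± 0.12) and SSQ1 (-1.44 ± 0.15) were the lowest. For LMT 8 genes differed as well, 1 with the higher and 7 with the lower change, beside 38.1% and 44.7%. ISU1 (-3.11 ± 0.12) and GRX5 (-1.47 ± 0.09) were again among the lower ones, and ISU2 (0.73 ± 0.09) was the one with the higher change. NFS1, at -0.22 ± 0.08, was -0.09 and no longer called with centred arrays, where the split was 1 higher and 6 lower beside 41.4% and 40.8% of all genes. Each of these contrasts rests on the level of the 15 h DMSO arrays, which they share. The standard errors and calls leave out variation between experiments.

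The arrays of both compounds at 15 h came from 1 experiment and were compared directly. E9591 stood higher than LMT at 5 genes and lower at 1, beside 38.6% and 39.5% of all genes. The higher ones were ISU2 by 2.63 ± 0.07 (6.20-fold, adjusted p = 4.54e-20), YAH1 by 1.48 ± 0.08, ISU1 by 1.10 ± 0.08, ISD11 by 0.65 ± 0.08 and NFS1 by 0.38 ± 0.05. ARH1 was the lower one, at -0.55 ± 0.09 (adjusted p = 1.08e-05). The other 4 did not pass the test: YFH1 at -0.00 ± 0.08 with a 95% interval from -0.16 to 0.16, GRX5 at 0.04 ± 0.06 from -0.09 to 0.17, SSQ1 at -0.14 ± 0.11 from -0.37 to 0.09 and JAC1 at -0.16 ± 0.09 from -0.34 to 0.02. Over all tested genes only 1187 of 5429 were not called in this comparison, so a call by itself says little about these genes. Whether the compounds differ by role within the pathway was not tested. With centred arrays the split was 5 higher and 2 lower, beside 37.9% and 40.2% of all genes.

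The genes that work with this machinery were followed in named lists. The Hsp70 Ssc1, its exchange factor Mge1, the acyl carrier protein Acp1 that binds Isd11, the iron carriers Mrs3 and Mrs4, and the nucleotide carriers Ggc1 and Rim2 made up 7 partners and suppliers. Of these, 2 rose and 1 fell with E9591 at 4 h (median 0.09), 4 and 2 with LMT (0.15), 2 and 3 with BIPR (-0.14), and 2 and 1 with PHEN (-0.04). Over all tested genes 32.0% were called higher and 11.3% lower with E9591, and 40.4% and 25.2% with LMT. The shares were 27.7% and 18.5% with BIPR, and 29.2% and 19.7% with PHEN. MRS4 rose in all 4, by 1.17, 1.73, 1.52 and 1.40. At 15 h 6 rose and 1 fell with either compound, with medians of 1.22 for E9591 and 0.61 for LMT. The shares of all genes there were 45.7% higher and 42.2% lower with E9591, and 41.9% and 41.9% with LMT. GGC1 led, at 4.59 ± 0.09 and 2.27 ± 0.09, followed with E9591 by MRS3 at 2.68 ± 0.07, and the gene that fell was ACP1.

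The late-acting mitochondrial factors place clusters into enzymes or, in the case of the transporter Atm1, export a sulfur compound. Of the 6 measured, 3 rose and 1 fell with E9591 at 4 h and likewise with LMT, with medians of 0.15 and 0.25. Of all tested genes 32.0% were called higher and 11.3% lower with E9591, and 40.4% and 25.2% with LMT. With BIPR and PHEN 0 rose and 3 fell, with medians of -0.58 and -0.52. Over all genes 27.7% were higher and 18.5% lower with BIPR, and 29.2% and 19.7% with PHEN. ISA1, which helps build larger clusters, rose by 1.25 ± 0.12 with LMT and fell by 1.99 with BIPR and 2.00 with PHEN. NFU1 and BOL3, which act at the transfer of clusters to target enzymes, also fell with BIPR, by 1.33 and 1.08, and their changes with LMT were 0.01 and -0.01. The split between compounds and chelators seen at YFH1, YAH1 and GRX5 was thus also present in this list. At 15 h the counts were 1 higher and 2 lower with E9591, and 1 and 5 with LMT. Beside them stood 45.7% and 42.2% of all genes with E9591, and 41.9% and 41.9% with LMT.

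Cytosolic cluster assembly depends on the mitochondrial machinery. Over all tested genes at 4 h, 32.0% were called higher and 11.3% lower with E9591, and 40.4% and 25.2% with LMT. Of the 8 genes of cytosolic assembly, 6 rose with E9591 and 6 with LMT at 4 h and 0 fell, with medians of 0.40 and 0.81. CIA2, part of the complex that delivers clusters to target proteins, led at 1.44 ± 0.07 and 1.96 ± 0.07. The 6 a mating-type genes also rose with these compounds, 6 of 6 with each, and their part in this result was not tested. With BIPR 3 of the 8 assembly genes rose and 1 fell, and with PHEN 3 rose and 0 fell, with medians of 0.04 and 0.10. The shares of all genes were 27.7% and 18.5% with BIPR, and 29.2% and 19.7% with PHEN. At 15 h, 6 were higher and 2 lower with E9591, beside 45.7% and 42.2% of all genes. With LMT 3 were higher and 5 lower, beside 41.9% and 41.9%. All 8 stood higher with E9591 than with LMT in the direct comparison at 15 h, with a median of 1.73, where 38.6% of all genes did.

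The 9 relatives of the members were the glutaredoxins outside GRX5, the Hsp70 gene ECM10 and the J-protein gene MDJ1. At 4 h the counts of higher and lower genes were 3 and 1 with E9591, 3 and 5 with LMT, and 2 and 0 with either chelator. Over all tested genes the shares were 32.0% and 11.3% with E9591, and 40.4% and 25.2% with LMT. They were 27.7% and 18.5% with BIPR, and 29.2% and 19.7% with PHEN. GRX4, a cytosolic monothiol glutaredoxin that takes part in iron sensing, rose by 1.34 ± 0.08 with E9591 and 1.61 ± 0.08 with LMT, against 0.10 ± 0.08 with BIPR, which was not called. A list of 14 Aft1 and Aft2 target genes held HMX1, TIS11 and LSO1 beside genes for iron uptake. Of these 14, 13 rose with E9591, 11 with LMT, 13 with BIPR and 13 with PHEN at 4 h, and 0 fell. At 15 h 11 rose and 2 fell with E9591, beside 45.7% and 42.2% of all genes. With LMT 8 rose and 4 fell, beside 41.9% and 41.9%. YFH1, YAH1 and GRX5 thus fell with the chelators while 13 of these 14 genes rose.

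Across the 10 groups, ISU2 covered the widest range of group means, 16.5-fold, wider than 92.0% of all tested genes. ISU1 followed with 6.40-fold, wider than 76.4%, and YAH1 with 5.24-fold. JAC1 and GRX5 spanned 3.65-fold and 3.60-fold, and SSQ1 and YFH1 2.82-fold and 2.57-fold. ISD11 and ARH1 spanned 1.88-fold and 1.67-fold, and NFS1 at 1.51-fold exceeded 3.52% of genes. In order from lowest to highest, ISU1 was lowest in the 3 DMSO groups at 4 h, then overlapping in BIPR, PHEN and LMT at 15 h, then in E9591 at 4 h, then overlapping in LMT at 4 h and E9591 at 15 h, and highest in DMSO at 15 h. ISU2 began with DMSO and LMT at 15 h, went on through DMSO and E9591 of the E9591 experiment, DMSO of the chelator and LMT experiments, the overlapping PHEN and BIPR groups and LMT at 4 h, and ended with E9591 at 15 h.

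The members did not vary as a block. Pearson's r was taken over the 10 group means, which share 4 DMSO baselines. It was 0.82 for ISU1 with SSQ1, 0.78 for SSQ1 with JAC1, 0.76 for ISU1 with ISD11 and 0.75 for ISU1 with JAC1. For YFH1 with GRX5 it was 0.74, for ISU2 with JAC1 -0.74 and for NFS1 with YFH1 -0.80. Without the 15 h DMSO group, r for YFH1 with GRX5 was 0.96, for ISU1 with ISD11 0.88 and for NFS1 with YFH1 -0.80. The other pairs weakened, ISU1 with SSQ1 to 0.63, ISU1 with JAC1 to 0.44, SSQ1 with JAC1 to 0.22 and ISU2 with JAC1 to -0.07. Genes whose pattern over the 10 group means was most like that of a member are given as a description, without a test. For ISU2 they were MRS3 (r = 0.98), the iron carrier named above, OAC1 (0.98), a mitochondrial oxaloacetate carrier, and ATX2 (0.98), a Golgi protein of manganese balance. YFH1 was most like LIP5 (0.94), lipoic acid synthase, which is itself an iron-sulfur enzyme, DPH2 (0.94), an iron-sulfur enzyme of diphthamide synthesis, and KTR6 (0.93). ISU1 was most like SIR1 (0.99), MSS4 (0.99) and AAC1 (0.98), GRX5 most like SAP30 (0.94), MRPL51 (0.93) and COX8 (0.93), and NFS1 most like SUV3, FRE2 and YOL162W (0.90, 0.89 and 0.89). Without the 15 h DMSO group the r for GRX5 dropped to between 0.80 and 0.84. That of NFS1 was then 0.90 with SUV3, 0.95 with FRE2, an iron reductase gene, and 0.89 with YOL162W.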

How the data were processed

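Total RNA of each culture was labelled with biotin and hybridised to its own Affymetrix yeast array, per the labels. The authors deposited 1 linear intensity for each of 10928 probe sets and 30 arrays, and a trimmed mean near 1000 on every array, with 2% left out at either end, shows that the deposited intensities had been scaled. The summary method, the software and its version were not given in the sources used here. The array annotation paired 5498 probe sets with 1 S. cerevisiae gene each, 5449 genes in all. For the 47 genes with several probe sets the one with the highest mean was taken. A further 3683 probe sets had no name here, and BOL1 had no named probe set and was not analysed.

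From these values log2(intensity + 1) was computed, and genes above the floor on at least 3 arrays were kept, which left 20 genes untested. The 10 groups were fitted in 1 linear model with limma 3.58.1 in R 4.3.3 (lmFit and eBayes, 20 residual degrees of freedom, all groups sharing 1 estimate of the spread), with p-values adjusted by Benjamini-Hochberg over 5429 genes for each of the 14 comparisons. Fold changes are on the log2(intensity + 1) scale and standard errors are limma's. Intervals cover 95%. Levels of different probe sets were not compared between genes, and with 3 arrays a group the number of arrays limits the precision. Of 30 pairs of arrays within groups, 0 were identical. The steps were tested on simulated data.

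All 10 members are named, together with the genes of the lists and, for ISU1, ISU2, NFS1, YFH1 and GRX5, the 3 genes most alike over the group means. The members and the lists were chosen with earlier results of these data known. Alternatives were another pseudocount, no filter, array weights, arrays centred on the median, quantile normalization, each comparison's own experiments only, a replicate block and leaving out each array.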

Additional observations from a re-analysis of the deposited data

Results flagged for a closer look

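A difference between changes was picked out where limma's test of that difference passed an adjusted p of 0.05, which 29 differences did, all in log2 units and none weighed here. The test leaves out variation between experiments. At 4 h, E9591 gave a smaller change than LMT at ISU2 (-0.45) and YAH1 (-0.42). Against the mean of both chelators, E9591 differed at YAH1 (1.34), YFH1 (1.30), GRX5 (0.79), ISU1 (0.56), NFS1 (-0.36) and ISU2 (-0.65). LMT differed from the chelators at YAH1 (1.76), YFH1 (1.29), GRX5 (0.72), ISU1 (0.69) and NFS1 (-0.49).

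Between exposure times, the change with E9591 at 15 h minus that at 4 h was 3.81 for ISU2, 1.67 for YAH1, -0.40 for YFH1, -0.59 for ARH1, -1.44 for SSQ1, -1.44 for JAC1, -1.49 for GRX5 and -1.88 for ISU1. For LMT it was 0.73 for ISU2, -0.22 for NFS1 (-0.09 and not called with centred arrays), -0.40 for YFH1, -0.85 for ISD11, -1.25 for SSQ1, -1.37 for JAC1, -1.47 for GRX5 and -3.11 for ISU1. Each of these rests on the level of the 15 h DMSO arrays, and experiment and time cannot be told apart.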

How the results depend on the processing

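Of the 92 calls made at the 10 genes over the 14 comparisons, 83 kept their direction and their side of the threshold under every alternative run. With arrays centred on their medians, 3 genes were called higher and 3 lower for E9591 at 4 h, beside 19.8% and 30.0% of all genes. For LMT at 4 h 4 were called lower, beside 39.9%. The lower count was 4 for E9591 against the chelators, beside 16.5%, and 2 for LMT against the chelators, beside 29.0%. It was 2 for E9591 against LMT at 15 h, beside 40.2%. Quantile normalization gave 1 lower for E9591 at 4 h, beside 23.4% of all genes, and 3 lower for LMT at 4 h, beside 35.1%. It gave 4 lower for E9591 against LMT at 4 h, beside 17.1%. For E9591 at 4 h 5 of the 10 genes were called higher as deposited, beside 1736 of all 5429. The count was 6 with array weights (2179 of all), 6 without E9591 replicate A (1596) and 7 without DMSO replicate A (1529). JAC1 with LMT at 4 h, 0.02 as deposited, turned to -0.19 with centred and -0.20 with quantile-normalized arrays and was called lower with both. The rise of NFS1 in the DMSO groups between 4 h and 15 h turned to -0.033 with centred arrays. The cause of these turns was not tested. Centring takes the shift of the median gene out of each change.

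Leaving out 1 array moved the lower count for E9591 against LMT at 15 h between 1 and 2. JAC1 at -0.23 was called without E9591 replicate B, where 2072 of all 5429 genes were lower. For LMT against the chelators the lower count also moved between 1 and 2. ISU2 was called at -0.25 without chelator DMSO replicate C (1055 of all genes lower) and at -0.24 without PHEN replicate B (1134). The main fit did not take the replicate letters as pairs. Deviations of arrays with the same letter correlated at -0.09 to 0.33, and 7 of 24 such pairs were over 0.1. These values do not settle whether the letters mark pairs. As a hint from the data, 28 of 48 checks found an array most like its own letter, where an equal share for the 3 letters would be 16. A fit with the letter as a replicate block gave 5 higher and 2 lower in the DMSO groups between 4 h and 15 h. Over all 5429 genes it gave 2626 higher and 2308 lower there. NFS1 (0.10) and ARH1 (0.19) were no longer called, and no other call at the 10 genes changed. Another pseudocount and no filter changed no call, and fitting the experiments of a comparison alone changed 1, at ARH1 with LMT at 15 h. The lowest-mean probe set could not be tried, since each gene had a single probe set. Intensities of the 10 genes lay at least 13.9-fold over the floor. Background specific to a single probe set was not tested.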
